A study of Mus musculus with 12 samples.

Results

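The genes described here carry newly made proteins into the endoplasmic reticulum (ER) and move them between the ER and the Golgi apparatus. The list names 52 genes, and 51 of them had a line in the deposited table, among 24570 named genes in all. The members were chosen by their measured values in part: the list was drawn up after lower values of Kdelr1, which encodes a receptor for escaped ER proteins, and of several ER chaperones had been seen in diabetic retinas of this same series. All differences between diabetic and control retinas below are therefore descriptions of these arrays. Their p-values are used only to sort and count genes, and none of these differences is support for a change of the list as a whole. The member without a line was Tmed2, for which the table held a line of the copy Gm10698 that is not counted here.

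The series measured whole retina with 1 array per mouse, in 6 normoglycemic control mice and 6 mice given streptozotocin, which kills pancreatic beta cells and so causes diabetes. Per the labels, the animals were C57BL6/J males, diabetes was induced at 8 weeks of age and 24 to 26 g with 160 mg/kg streptozotocin into the peritoneum, a blood glucose above 15 mM was required at day 7, and controls had no diabetes. The end point was 6 weeks, but the design text calls the diabetic animals 6 weeks old, so the age at the end was not settled. The numbers in the animals' names fall in separate ranges for control and diabetic mice, and if they mark cohorts, cohort and diabetes cannot be told apart.

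A secretory or membrane protein starts with a signal sequence that is bound, as it leaves the ribosome, by the signal recognition particle (SRP) and handed to the SRP receptor and the Sec61 channel. Inside the ER the signal is cut off by signal peptidase and sugars are attached by oligosaccharyltransferase. Vesicles with a COPII coat then leave for the Golgi apparatus, and vesicles with a COPI coat return cargo receptors and those chaperones that end in the KDEL signal. In the retina this route carries rhodopsin, which photoreceptors make without pause to renew their outer segments.

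Values are log2 values from robust multi-array averaging (RMA), and each change of a gene is given ± its standard error in limma, fitted over all 24570 genes. Shifts of a difference between 2 genes within an array are given ± a standard error pooled over both groups, outside limma. Each shift is the difference of the changes of its 2 genes, so it is no separate result. No share over all genes stands beside the overlap of these shifts. A gene is called lower or higher where its adjusted p over all genes was under 0.05. By that rule 7 of the 51 genes were called, 4 lower and 3 higher in diabetic retinas, beside 3.24% of all genes (1.77% lower and 1.47% higher). Among genes with a mean at or above the table's median, which held 49 of the 51, the same fit called 5.13%. Because the list was chosen with this contrast known, nothing is read from the larger share. The median log2 change was -0.014 over the 51 genes and -0.0018 over all genes, and 29 of the 51 lay below 0 (56.9%, against 51.9% of all genes). The groups did not overlap for 5 of the 51, 3 with diabetic arrays below and 2 above, where this held for 2.84% of all genes (1.62% below and 1.22% above). The called genes did not share a direction within a step: signal recognition, the translocon and COPI each held lower and higher ones, while glycosylation and COPII held none.

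**Figure D1:**
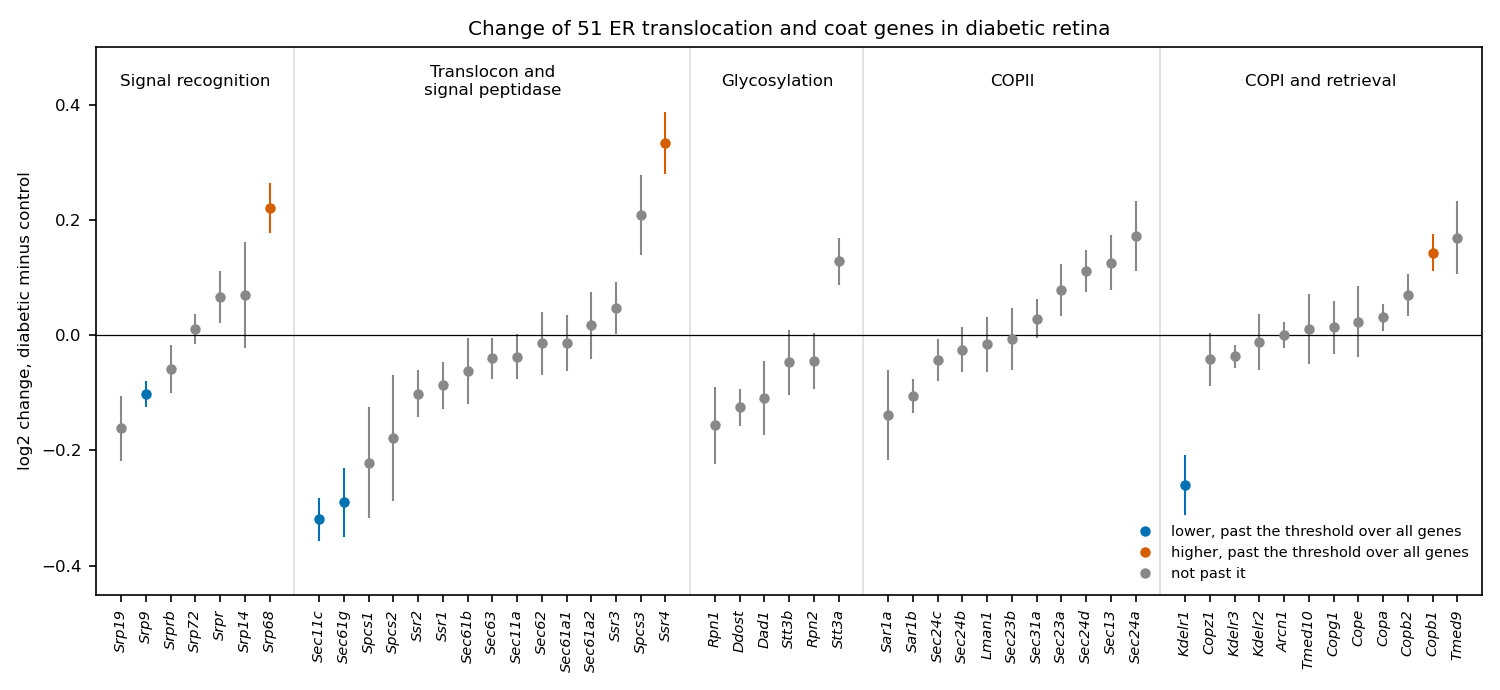
The vertical axis gives the log2 change (diabetic minus control) of each of the 51 genes, with its standard error as a bar (6 arrays per group), ordered by change within 5 steps. Sec11c, Sec61g, Kdelr1 and Srp9 are marked as lower and Ssr4, Srp68 and Copb1 as higher, and each step holds genes on both sides of 0.

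In the SRP, Srp9, a subunit of the pair that pauses the ribosome, was called lower and Srp68, a scaffold of the part that binds the signal, was called higher. Control retinas had Srp9 values of 6.00 to 6.12 (median 6.03) and diabetic retinas of 5.90 to 5.99 (median 5.93). The groups did not overlap, but the change was small at -0.10 ± 0.02 (1.07-fold lower), and the groups were parted by 0.0088 on the log2 scale. Srp9 was dim, with a mean of 5.99 near the array median of 5.73. It was not called when only genes with a mean at or above the table's median were fitted. The Srp68 values were 8.12 to 8.35 (median 8.23) in controls and 8.32 to 8.50 (median 8.47) in diabetic retinas. Of the 6 diabetic arrays, 5 lay above every control, and the change was 0.22 ± 0.04 (1.17-fold higher).

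Leaving out each of the 12 arrays in turn, Srp9 stayed called 3 times. It was not called without control 2, control 3, control 4, control 6, diabetic 1, diabetic 2, diabetic 3, diabetic 4 or diabetic 5, where its change was -0.11 to -0.09. Srp68 stayed called except without diabetic 1 (0.21). Srp19, which helps the particle's RNA to fold, had a change of -0.16 ± 0.06 and was not called, with 5 of 6 diabetic arrays below every control. The remaining 4 genes of this step, Srp14, Srp72 and the receptor genes Srpr and Srprb, had changes between -0.06 ± 0.04 (Srprb) and 0.07 ± 0.09 (Srp14), with overlapping groups. Srp14, the partner of Srp9 in the ribosome-pausing pair, had an SD of 0.23 among controls and 0.08 among diabetic retinas (n = 6 each), and the first rested on control 5 (6.81), without which it was 0.0984. Srp9 minus Srp14 shifted by -0.17 ± 0.10 within an array between the groups, with overlap.

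At the translocon the called genes were Sec11c and Sec61g, both lower, and Ssr4, higher. Sec11c encodes an enzymatic subunit of signal peptidase. Its values were 7.65 to 7.74 (median 7.69) in controls and 7.28 to 7.51 (median 7.37) in diabetic retinas. Every diabetic array lay below every control, with 0.14 between the groups, and the change was -0.32 ± 0.04 (1.25-fold lower). It was the lowest change among the 51 genes. Sec11a, the other enzymatic subunit, had values of 9.44 to 9.57 (median 9.50) in controls and 9.37 to 9.58 (median 9.46) in diabetic retinas, a change of -0.04 ± 0.04, and was not called. Among the accessory subunits of signal peptidase, Spcs1 (-0.22 ± 0.10) and Spcs2 (-0.18 ± 0.11) lay on the side of Sec11c and Spcs3 (0.21 ± 0.07) on the other, and none was called. Within an array, Sec11a minus Sec11c shifted by 0.28 ± 0.06 from controls to diabetic retinas, without overlap of the groups. This pair, like those of Ssr4 below, was picked after the values were seen.

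Ssr4 encodes the delta subunit of the translocon-associated protein complex, which sits beside the Sec61 channel and helps certain signal sequences to enter. Controls had Ssr4 values of 6.48 to 6.81 (median 6.75) and diabetic retinas of 6.96 to 7.10 (median 7.03). All diabetic arrays lay above all controls, with 0.16 between the groups, and the change of 0.33 ± 0.05 (1.26-fold higher) was the highest of the 51. The other subunits of the same complex had changes of -0.09 ± 0.04 for Ssr1, -0.10 ± 0.04 for Ssr2 and 0.05 ± 0.04 for Ssr3, none of them called. Ssr4 minus Ssr2 shifted by 0.43 ± 0.08 within an array and Ssr4 minus Ssr1 by 0.42 ± 0.08, both without overlap, and Ssr4 minus Ssr3 by 0.29 ± 0.06, with overlap. Sec11c and Ssr4 were called in all 12 runs that left out 1 array and in all 9 other settings (filters, variance models, weights, block, covariates and scalings). Of these 9 settings, Kdelr1 and Srp68 passed 8, Sec61g 7, Copb1 5 and Srp9 4.

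Sec61g encodes the gamma subunit, a single-span protein that clamps the channel. It ranged over 6.33 to 6.58 (median 6.44) in controls and 6.04 to 6.35 (median 6.13) in diabetic retinas, and 5 of 6 diabetic arrays lay below every control. The change was -0.29 ± 0.06 (1.22-fold lower). Sec61g was not called without control 1, control 2, control 6, diabetic 1, diabetic 3, diabetic 4 or diabetic 6 (-0.29 to -0.26). The channel itself is formed by the alpha subunit, whose genes were not called, Sec61a1 with -0.01 ± 0.05 and Sec61a2 with 0.02 ± 0.06. The beta subunit gene Sec61b had -0.06 ± 0.06, and the partners of the channel in post-translational import, Sec62 and Sec63, had -0.01 ± 0.05 and -0.04 ± 0.04. Sec61g minus Sec61b shifted by -0.23 ± 0.10 within an array, with overlap, and Sec61g minus Sec61a1 by -0.28 ± 0.08, without overlap.

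Of the 6 oligosaccharyltransferase genes none was called by limma, while 3 had an unadjusted p under 0.05. That mark was reached by 21% of all genes and by 27.7% of those with a mean at or above the table's median. The median change was -0.078, and 5 of the 6 lay below 0. Ddost, a noncatalytic subunit, had values of 9.72 to 9.91 (median 9.75) in controls and 9.61 to 9.72 (median 9.62) in diabetic retinas, with 5 of 6 diabetic arrays below every control (change -0.13 ± 0.03). Stt3a, the catalytic subunit of the complex that works at the channel during translation, lay on the other side of 0 (0.13 ± 0.04), with values of 9.88 to 10.01 (median 9.97) in controls and 9.98 to 10.25 (median 10.06) in diabetic retinas. Stt3b, the catalytic subunit of the complex that acts on sites passed over by the first, had -0.05 ± 0.06. The difference of Stt3a and Stt3b within an array shifted by 0.17 ± 0.06 between the groups, with overlap. Rpn1, Rpn2 and Dad1 had changes from -0.16 ± 0.07 (Rpn1) to -0.04 ± 0.05 (Rpn2).

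The 11 COPII genes also held no call by limma, with 4 at an unadjusted p under 0.05 (36.4%, beside 21% of all genes), and their median change was -0.0059. This median was 0.018 without control 4 and 0.025 without control 6, and it crossed 0 in 5 of the 12 runs without 1 array. Sar1a and Sar1b, the GTPases that start the coat, had -0.14 ± 0.08 and -0.11 ± 0.03. The Sar1b values of 10.32 to 10.45 (median 10.37) in controls and 10.21 to 10.37 (median 10.28) in diabetic retinas overlapped through 1 diabetic array. The inner coat genes Sec23a (0.08 ± 0.05) and Sec23b (-0.01 ± 0.05) had overlapping groups.

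Sec24 proteins choose the cargo of the vesicle, and 4 genes encode them. Sec24a had 0.17 ± 0.06, and its controls were spread over 9.18 to 9.62 (median 9.34) while the diabetic arrays kept to 9.49 to 9.58 (median 9.53), within the range of the controls. Sec24a was not called with all 12 arrays. Control 5 alone made this overlap: the other 5 controls reached 9.43, below every diabetic array, and without control 5 Sec24a was called higher (change 0.22). For Sec24a, control 5 did not stand far enough from the other controls to be flagged by the rule for single arrays given below. Being called in 1 of the 12 runs that left out an array was not particular to Sec24a, as Sar1b, Spcs3 and Ddost were too. Sec24b (-0.03 ± 0.04) and Sec24c (-0.04 ± 0.04) lay near 0. Within an array, Sec24a minus Sec24b shifted by 0.20 ± 0.05 and Sec24a minus Sec24c by 0.21 ± 0.06 between the groups, which overlapped in each case. Sec24d had 0.11 ± 0.04, but with a control mean of 5.64 it lay below the array median of 5.73, where RMA compresses differences. The outer coat genes Sec13 (0.13 ± 0.05) and Sec31a (0.03 ± 0.03) and the cargo receptor gene Lman1 (-0.02 ± 0.05) were not called.

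Kdelr1, whose lower value led to the choice of these genes, encodes a receptor that returns KDEL-tailed chaperones from the Golgi apparatus to the ER. Its values were 8.04 to 8.39 (median 8.22) in controls and 7.88 to 8.04 (median 7.97) in diabetic retinas, a change of -0.26 ± 0.05. The groups did not overlap, although control 6 and diabetic 2 were only 0.00195 apart. It was not called without control 2, control 3, diabetic 3, diabetic 4 or diabetic 6 (changes of -0.26 to -0.24). Kdelr2, a receptor of the same family, had values of 8.23 to 8.45 (median 8.35) in controls and 8.17 to 8.46 (median 8.34) in diabetic retinas and did not differ beyond its error (-0.01 ± 0.05; 95% interval -0.12 to 0.09). The difference of Kdelr1 and Kdelr2 within an array shifted by -0.25 ± 0.06 from controls to diabetic retinas, with overlap. Kdelr3 had -0.04 ± 0.02 at a control mean of 5.48, below the array median.

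Among the coat genes of the returning vesicles 1 was called. Copb1, the beta subunit of the COPI coat, was called higher, with values of 9.65 to 9.77 (median 9.72) in controls and 9.79 to 9.96 (median 9.84) in diabetic retinas. The groups did not overlap, and the change was 0.14 ± 0.03 (1.10-fold higher). Copb1 was not called without control 1, control 2, control 4, control 6, diabetic 1, diabetic 3, diabetic 4, diabetic 5 or diabetic 6 (0.12 to 0.15). The other 6 coat genes, Copa, Copb2, Copg1, Cope, Copz1 and Arcn1, had changes from -0.04 ± 0.05 (Copz1) to 0.07 ± 0.04 (Copb2), none of them called. Copb1 minus Copb2 shifted by 0.07 ± 0.05 within an array, with overlap. Of the p24 family of cargo receptors, Tmed9 had 0.17 ± 0.06 and Tmed10 0.01 ± 0.06. The table's line for Gm10698, a copy whose RefSeq synonyms include Tmed2, had values of 10.32 to 10.88 in controls and 10.28 to 10.57 in diabetic retinas, and whether it measures Tmed2 was not tested.

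**Figure D2:**
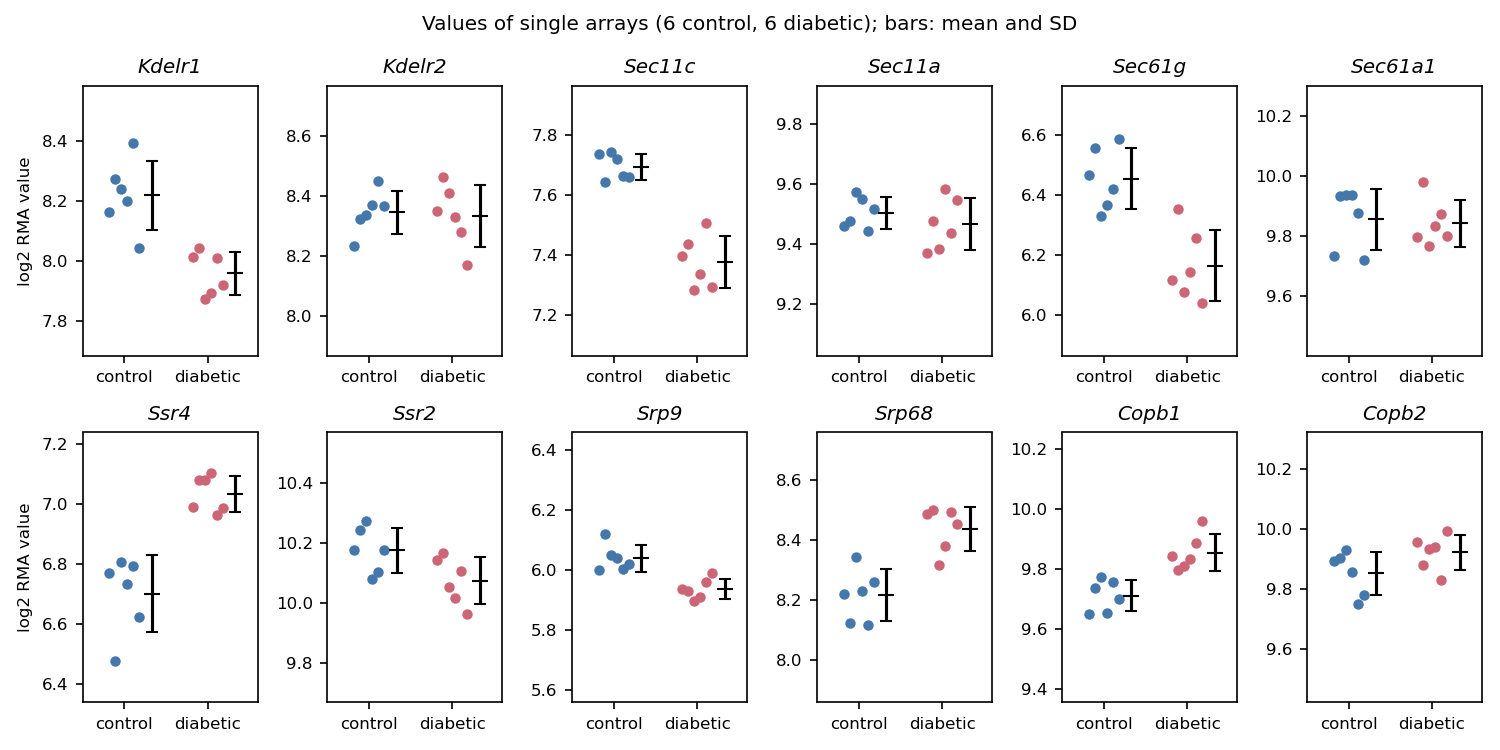
Each panel gives the log2 RMA values of 1 gene on the 6 control and 6 diabetic arrays, with the mean and SD beside the points, and every vertical axis spans the same range of log2 units. The groups stand apart for Kdelr1, Sec11c, Ssr4, Srp9 and Copb1, while Kdelr2, Sec11a, Sec61a1, Ssr2 and Copb2 overlap.

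The count of called genes changed when 1 array was left out. So did the count over all genes, where 435 lower and 362 higher became 170 and 155 without diabetic 4. Without control 2, diabetic 3 or diabetic 4 there was 1 lower gene of the 51. There were 2 without control 3, control 6, diabetic 1 or diabetic 6, and the remaining runs gave 3 or 4. Of higher genes there was 1 without diabetic 1, and all other runs gave 2 to 4. With the mean of 9 lens genes as a covariate, Sec61g (change -0.28) and Copb1 (0.14) were no longer called, which left 3 lower and 2 higher, but their changes were nearly as large as without it. The lens genes are not of the retina, all 9 had changes above 0 without 1 being called, and their mean level was 5.92 to 6.70 in controls and 5.79 to 7.77 in diabetic retinas. The highest lens levels were those of diabetic 6 (7.77) and diabetic 2 (7.15), and the other 4 diabetic arrays lay at or under 6.31, within the controls or below them. Diabetic 6 also had the highest pigment epithelium level, the lowest Sec61g and the highest Copb1 value, and without it the changes of Sec61g and Copb1 were -0.27 and 0.12. Pigment epithelium genes overlapped between groups (6.30 to 7.03 against 6.30 to 7.49), and so did the 8 rod genes (12.61 to 12.70 against 12.59 to 12.69), which mark the main cell type of the retina and lay near the top of the scale. Of 6 cone genes 1 was called (16.7%, beside 3.24% of all genes), and their median change was -0.05, with mean levels of 9.47 to 9.59 and 9.31 to 9.51. The called gene was Arr3, the cone arrestin (-0.30 ± 0.07; 11.27 to 11.54 (median 11.41) in controls and 10.87 to 11.25 (median 11.12) in diabetic retinas, without overlap). The 6 ganglion cell genes had a median change of -0.091, near that of the ER chaperones, and levels of 8.22 to 8.48 and 8.19 to 8.42. None was called by limma, and 2 had an unadjusted p under 0.05 (33.3%, beside 21% of all genes). Bipolar, Mueller glia, endothelial and microglial genes had median changes of -0.022, 0.0049, 0.0013 and -0.036, with none called by limma. Of the 6 bipolar genes, 3 had an unadjusted p under 0.05, and their changes ran from -0.23 to 0.17. The part of cone and ganglion cell RNA in the changes above was not tested. The 5 plasma cell genes, markers of cells rich in this machinery, had a median change of -0.0036 and levels of 5.87 to 6.03 in controls and 5.95 to 6.04 in diabetic retinas. In whole retina, fewer cells of a type and less RNA per cell cannot be told apart.

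Further genes of the same route were taken from lists. Of 27 other genes of targeting, membrane insertion and glycosylation, 24 were measured and 1 was called (4.17%, near the 3.24% of all genes). The called gene was Bcap31, a membrane chaperone and export factor of the ER (-0.22 ± 0.05; 8.43 to 8.70 (median 8.63) in controls and 8.24 to 8.47 (median 8.39) in diabetic retinas). The median change of the 24 was -0.017. Of 47 other genes of coats, cargo receptors and tethers, none was called by limma, and the median was -0.014. An unadjusted p under 0.05 was reached by 6 of them (12.8%, against 21% of all genes). Bcap31 was not called without control 1, control 2, control 3, control 6, diabetic 1, diabetic 2, diabetic 3, diabetic 4, diabetic 5 or diabetic 6 (-0.24 to -0.20).

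ER chaperones had a part in the choice of the list, so their values are a description too. Of 26 ER chaperones and folding enzymes, 20 lay below 0 (median -0.094) and 3 were called, all lower (11.5%), beside 1.77% of all genes called lower and 51.9% below 0. These were the calcium-binding chaperone Calr (-0.29 ± 0.06), the disulfide isomerase Pdia3 (-0.29 ± 0.05) and Creld2 (-0.30 ± 0.05), and the groups did not overlap for any of them. Calr was not called without control 1, control 2, control 3, control 6, diabetic 3 or diabetic 4 (-0.29 to -0.26), whereas Pdia3 and Creld2 were called in all 12 runs. Hspa5, the main Hsp70 chaperone of the ER, had -0.19 ± 0.07 and Hsp90b1 -0.17 ± 0.05, and neither was called. Of 23 genes of the unfolded protein response, the signalling route that raises ER chaperones under load, 4 were called, all lower (17.4%, beside the same 1.77% of all genes). They were Xbp1, a transcription factor of the response (-0.28 ± 0.06), Atf6b (-0.26 ± 0.05), the phosphatase regulator Ppp1r15a (-0.19 ± 0.03) and asparagine synthetase, Asns (-0.29 ± 0.06). Earlier results of these same data had already named Xbp1 and Asns, and Calr and Creld2 of the chaperones, so nothing is read from either share. Xbp1 was not called without control 1, control 2, control 3, control 6, diabetic 3, diabetic 4 or diabetic 6 (-0.29 to -0.25), Asns without control 1, control 3, diabetic 1, diabetic 3, diabetic 4, diabetic 5 or diabetic 6 (-0.30 to -0.27), or Atf6b without diabetic 4 (-0.25). The Xbp1 values were 9.28 to 9.60 (median 9.45) in controls and 9.03 to 9.25 (median 9.16) in diabetic retinas.

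**Figure D3:**
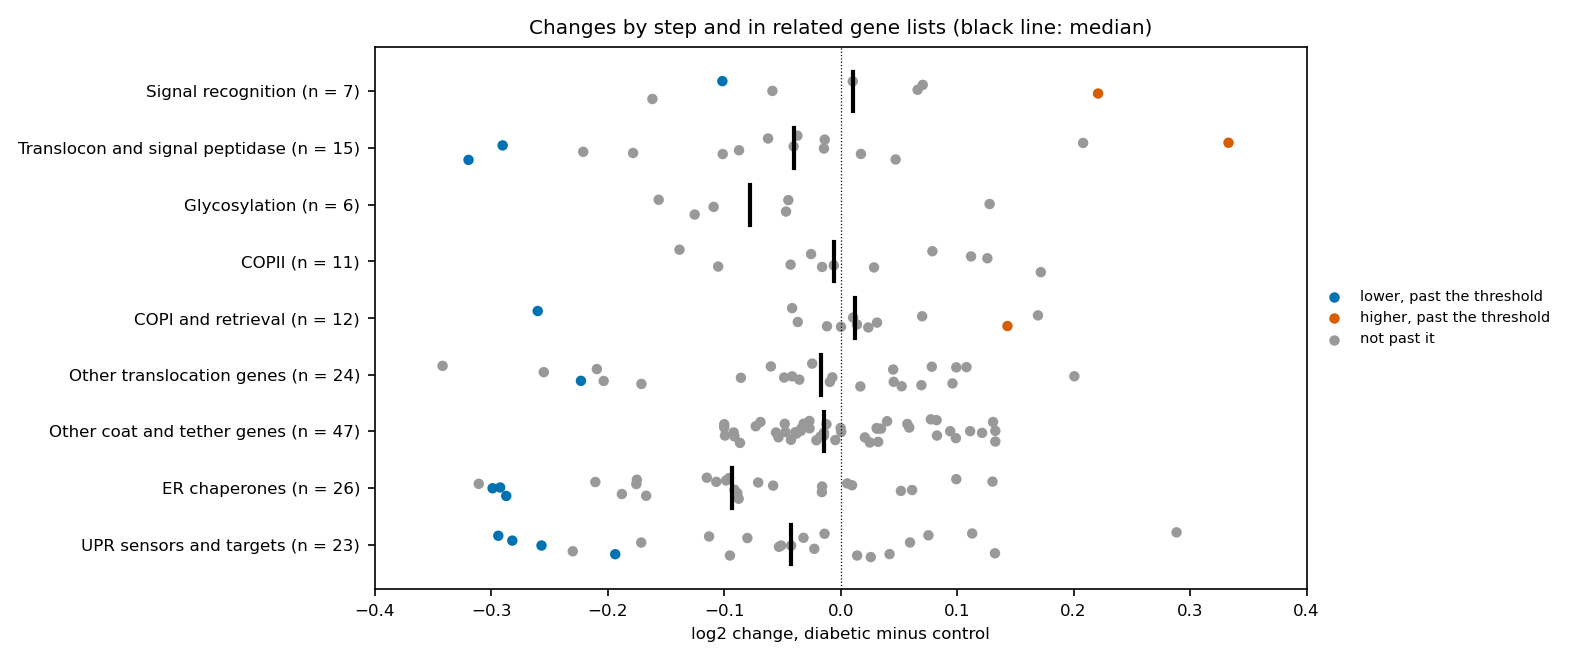
Each point is the log2 change (diabetic minus control) of 1 gene, in the 5 steps and in 4 lists of related genes, with a black line at the median of each list. The medians of the ER chaperones (-0.094) and of glycosylation (-0.078) lie farthest below 0, and those of signal recognition and COPI lie at 0.01 and 0.012.

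Many chaperone genes carry the ER stress response element in their promoter, and both Kdelr1 and Calr were called lower, so their promoters are shown. The element, ERSE, is CCAAT followed after any 9 bases by CCACG. ERSE-II is ATTGG followed after any 1 base by CCACG. Promoters here are the 300 bases from 250 before to 50 after a gene's start, from RefSeq (GRCm38.p6), read on both strands, and 42 of the 51 genes had 1 in the table. The members without a promoter, among them the called genes Sec11c and Srp68, were not read. ERSE was in 0 of these 42, in 8 of 22 chaperones (Calr, Canx, Creld2, Dnajc3, Ero1b, Hsp90b1, Hspa5 and Pdia6) and in 0.137% of the 27025 genes with a promoter, while ERSE-II was in 0 of the 42 and in 0.0444% of all. The shorter TGACGTG, the core bound by ATF6 and XBP1, was in 6 of the 42 (14.3%; Copb1, Copb2, Kdelr3, Sec23a, Sec24d and Srpr) and in 2.22% of all. TGACGTCA was in 1 of the 42, Cope, and in 2.03% of all. CCACG was in 29 of the 42 and in 35.5% of all genes, and CCAAT in 19 and 41.1%. The median GC content was 58.2% in the promoters of the 42 genes and 52.8% in those of all genes, and the shares were not matched for it. A match is no proof of a binding site.

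The promoters of Kdelr1 and Ssr4 (the first lower, the second higher), of Copb1 (higher) and, for comparison, of the chaperone gene Calr (lower) are given 5′ to 3′ on the strand of the gene. Capitals mark the 4 short motifs above on either strand, so that their reverse complements are marked as well.
Kdelr1, chr7:45872590-45872889, plus strand: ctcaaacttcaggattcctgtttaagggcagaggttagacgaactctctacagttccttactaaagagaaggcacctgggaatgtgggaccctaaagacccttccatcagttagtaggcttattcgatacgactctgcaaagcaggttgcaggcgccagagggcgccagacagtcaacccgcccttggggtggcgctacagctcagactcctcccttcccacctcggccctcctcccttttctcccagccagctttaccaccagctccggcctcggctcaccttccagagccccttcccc
Ssr4, chrX:73786773-73787072, plus strand: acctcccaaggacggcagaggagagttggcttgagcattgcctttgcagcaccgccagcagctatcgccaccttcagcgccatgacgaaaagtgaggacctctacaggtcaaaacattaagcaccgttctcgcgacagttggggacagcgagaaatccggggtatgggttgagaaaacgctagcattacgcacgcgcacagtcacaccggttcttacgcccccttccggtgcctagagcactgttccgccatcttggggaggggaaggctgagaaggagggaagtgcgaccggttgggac
Copb1, chr7:114254631-114254930, minus strand: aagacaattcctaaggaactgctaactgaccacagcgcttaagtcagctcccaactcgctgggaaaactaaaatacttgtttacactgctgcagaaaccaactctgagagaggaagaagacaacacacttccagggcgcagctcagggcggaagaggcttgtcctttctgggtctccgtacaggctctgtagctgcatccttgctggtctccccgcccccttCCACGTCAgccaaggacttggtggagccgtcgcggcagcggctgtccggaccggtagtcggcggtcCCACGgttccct
Calr, chr8:84846882-84847181, minus strand: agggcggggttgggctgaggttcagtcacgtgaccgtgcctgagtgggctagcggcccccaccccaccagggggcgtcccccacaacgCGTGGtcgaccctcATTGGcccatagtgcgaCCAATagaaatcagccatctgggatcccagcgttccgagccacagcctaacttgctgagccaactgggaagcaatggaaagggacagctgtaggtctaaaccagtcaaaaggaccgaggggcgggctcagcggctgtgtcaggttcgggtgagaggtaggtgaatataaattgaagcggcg
Kdelr1 and Ssr4 held none of these motifs in the window. Copb1 held TGACGTG read on the other strand, overlapping a CCACG. Calr held ERSE read on the other strand. Of the other genes called lower, Srp9 held 2 CCAAT and 1 CCACG and Sec61g held 2 CCAAT, and their promoters are not given here.

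Because diabetes against control had been used to choose the genes, it was also asked how each gene varied with the chaperones among animals of the same group. The Pearson correlation of each gene with the mean of the 26 chaperones was taken over the 12 arrays after each group's mean had been removed, and it is given as a description without a p-value. Cope, the epsilon subunit of the COPI coat, had the highest r of the 51 genes over all 12 arrays (0.92; Spearman's rho 0.87), but not over 10. Its r was 0.92 in controls and 0.92 in diabetic retinas, and 0.83 without control 5 and diabetic 5, the arrays with the most extreme chaperone means. Without these, Copb1 had the highest r (0.89, against 0.47 over all 12). Rpn2, a subunit of oligosaccharyltransferase, came next over 12 arrays (r of 0.86, rho of 0.86, and r of 0.79 without these 2 arrays). Between the groups, Cope (0.02 ± 0.06) and Rpn2 (-0.04 ± 0.05) had changes within their errors of 0. Against the single genes Hspa5, Calr and Xbp1, r was 0.70, 0.84 and 0.50 for Cope, and 0.82, 0.55 and 0.41 for Rpn2.

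The r of Kdelr1 differed in sign between the groups, which was not particular to it. Sec63 (-0.71 in controls, 0.78 in diabetic retinas) and Kdelr3 (0.68 and -0.69) were among other members that did so. For Kdelr1, r was -0.22 over all arrays, -0.52 in controls and 0.31 in diabetic retinas, and 0.14 without control 5 and diabetic 5. Against single genes it was -0.05 with Hspa5, -0.06 with Calr and 0.22 with Xbp1. Sec24a (r of -0.73, -0.47 without the same 2 arrays) and Kdelr2 (r of -0.70, then -0.62) had the lowest values over 12 arrays. Kdelr2 had an r of -0.62 in controls, near that of Kdelr1, and of -0.79 in diabetic retinas, and the difference between both genes was not tested. For Sec11c and Ssr4, the genes of largest change, r was 0.30 and -0.55. Over the set, r was 0.5 or more for 11 of the 51 genes (21.6%) and for 6.93% of all genes other than the chaperones. It was -0.5 or less for 6 (11.8%) and 6.83%. Without the same 2 arrays these counts were 10 (19.6%, against 9.88%) and 3 (5.88%, against 8.95%). By step, the median r was 0.54 for signal recognition and 0.46 for glycosylation, 0.19 for COPI, 0.15 for the translocon and 0.03 for COPII. This order did not hold without the 2 arrays, where the medians were 0.22, 0.38, 0.16, -0.01 and 0.20 in the same sequence.

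Among themselves the 51 genes hardly moved together within groups. Over their 1275 pairs the mean correlation was 0.03, against 0.0008 for all genes and 0.23 for the 26 chaperones. It was highest for signal recognition (0.11) and -0.02 for COPII. Single pairs of the 51 ran from -0.86 to 0.88. Over the 21 pairs of called genes the mean was 0.06. The highest of these was that of Srp68 and Sec11c (r = 0.68), which changed in opposite directions between the groups. The lowest was that of Srp9 and Ssr4 (r = -0.75), which also changed in opposite directions. All genes of an array share its RNA and its hybridisation, and the part of RNA quality in these correlations was not tested.

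**Figure D4:**
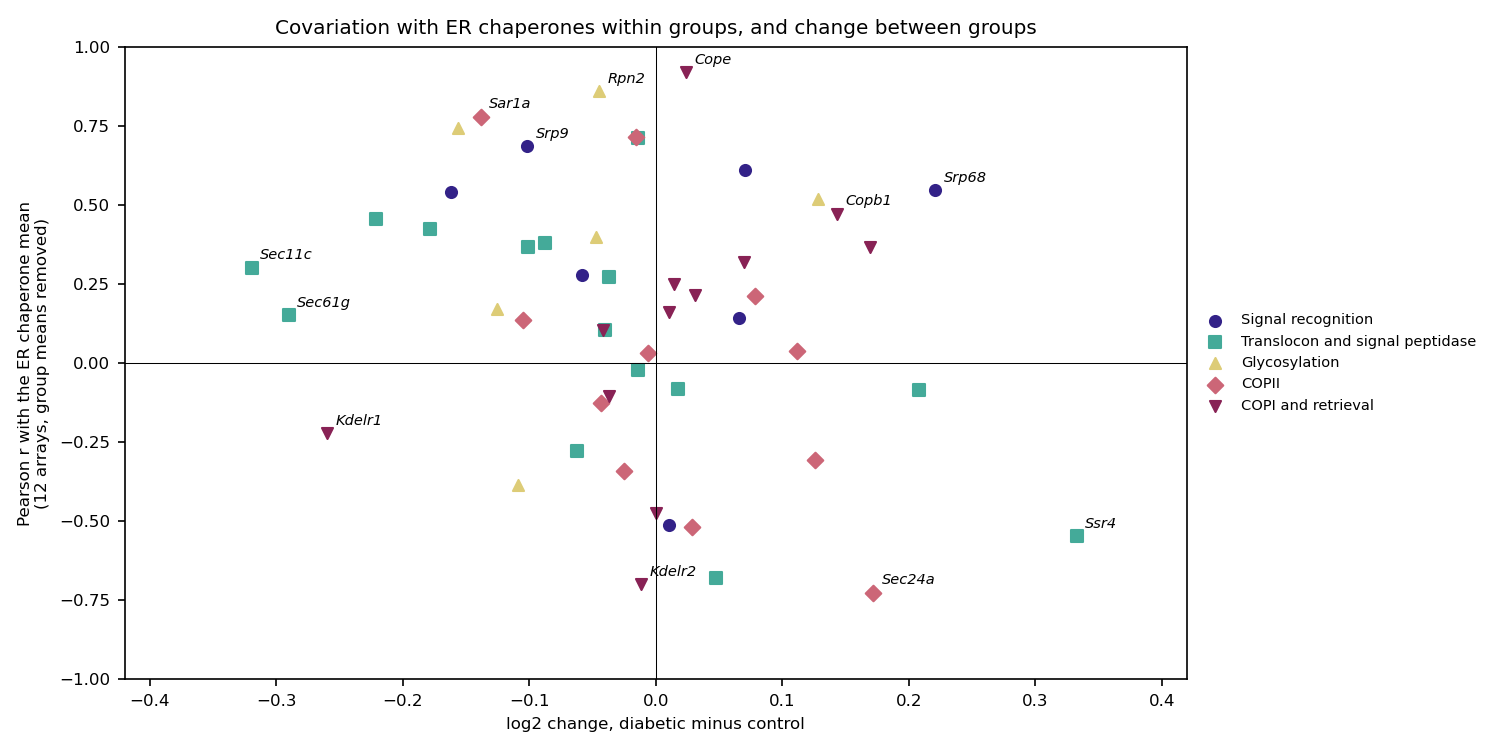
For each of the 51 genes the horizontal axis gives the log2 change (diabetic minus control) and the vertical axis Pearson's r with the mean of 26 ER chaperones over 12 arrays with group means removed. Cope and Rpn2 stand at the top with changes near 0, and Kdelr1, Sec11c, Sec61g and Ssr4 lie at the sides.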

How the data were processed

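The members and the gene lists were chosen with earlier results of these data known. The authors deposited log2 values made with RMA, per the submitters' processing notes, and RMA corrects background, normalizes quantiles and summarizes probes. Sorted by size, all arrays held the same values, so a shift shared by most genes cannot be seen. Software version and probe sets are not given in the sources used here. Lines (24973) were named by Entrez number through the platform annotation (24015) and RefSeq GRCm38.p6 (559), and 399 stayed unnamed, and of 4 symbols on several lines the brightest was kept.

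Groups came from the sample titles. The fit used limma 3.58.1 in R 4.3.3 (lmFit, then eBayes) for the change from control to diabetic over all 24570 genes without a filter, with Benjamini-Hochberg adjustment and a threshold of 0.05, and the procedure was tested on simulated data. The number of arrays limits the precision. Named were Kdelr1, all called members, in each of 5 steps the 2 members of smallest p and the 1 farthest against the step's median, the paralog sets (Kdelr, Sec61a, Stt3, Sar1, Sec23, Sec24), and Hspa5, Hsp90b1, Calr, Xbp1 and up to 4 called genes of each related list. The pairs of Sec11, Ssr, Copb and Srp genes, those of Sec61g with Sec61b and Sec61a1, and the genes picked for their correlation with chaperones were named after their values were seen. Correlations had been planned against single genes, and the mean of the chaperones was added after the data were seen. A permutation test of these correlations was also run. It is not reported, because arrays share RNA quality and the correlations were planned as a description without a p-value. Alternatives were a filter on dim genes, 2 other variance models, array weights, lens and pigment epithelium covariates, a block for the replicate number, cyclic loess, means of repeated lines and each array left out.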

Additional observations from a re-analysis of the deposited data

Results flagged for a closer look

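In 5 of 102 groups of 6 arrays (51 genes in 2 groups), 1 array stood away from the rest: its gap to the nearest array, divided by the whole range, passed Dixon's 95% critical value of 0.625 in 4.9% of groups, where chance gives about 1 in 20. Control 2 was high for Ddost (9.91, nearest other array 9.78, ratio of gap to range 0.704) and low for Tmed10 (9.12, nearest other array 9.31, ratio of gap to range 0.660). Control 5 was high for Sec24b (9.53, nearest other array 9.41, ratio of gap to range 0.632) and for Sec31a (9.95, nearest other array 9.82, ratio of gap to range 0.691). Diabetic 3 was high for Arcn1 (11.29, nearest other array 11.22, ratio of gap to range 0.661). None of these 5 genes was among the 7 called ones. Ddost, with its high control, was called in 1 of 12 runs with an array omitted.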

How the results depend on the processing

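Of the 51 genes, 4 were called lower and 3 higher. These counts were 1 and 2 without moderation of the variance, 5 and 1 with the replicate number as a block, 5 and 4 with the pigment epithelium covariate, 3 and 2 with the lens covariate, and 1 to 4 of each when 1 array was left out. The median change stayed between -0.03 and -0.01 in all runs. With 1 array left out it ran from -0.016 to 0.025 for COPII and -0.015 to 0.026 for signal recognition, both crossing 0, -0.061 to -0.024 for the translocon, -0.097 to -0.062 for glycosylation and 0.0015 to 0.031 for COPI. Over all genes, 435 lower and 362 higher genes became 209 and 162 without moderation, 279 and 227 with the block and 229 and 231 with the lens covariate, and 170 and 155 without diabetic 4. Of 315 values of the 15 called genes named here under the alternatives, 229 stayed past the threshold, 86 did not and 0 changed sign. The cause of lost calls was not tested, and runs with 1 array left out also had fewer arrays. With the block, deviations of same-numbered arrays correlated at -0.16 to 0.17, over 0.1 for 1 of 6 numbers, and 2 of 12 arrays correlated best with their own number, so the numbers were not taken as pairs. The table gives no signal over background, and Sec24d and Kdelr3 lay below the array median.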

Other observations

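Genes that start next to each other and lead apart can share a promoter region, and 8 of the 42 members with a promoter in the RefSeq table (GRCm38.p6) had such a neighbour within 1000 bases. This comparison was chosen after the values were seen. Ssr4, the gene with the highest change, lies beside Idh3g, a subunit of the citric acid cycle enzyme isocitrate dehydrogenase. Idh3g had a change of -0.03 ± 0.03 and was not called, against 0.33 ± 0.05 for Ssr4. Within groups the values of Ssr4 and Idh3g had a correlation of -0.53 over 12 arrays, given without a test. Copb2 (0.07 ± 0.04) lies beside 4930579K19Rik, which was called lower (-0.18 ± 0.03). Dad1 (-0.11 ± 0.06) and its neighbour Abhd4 (-0.09 ± 0.03) were both below 0, and Srpr (0.07 ± 0.04) and Foxred1 (0.10 ± 0.04) both above. In all, 5 of the 8 pairs had changes of the same sign. No share over all such pairs was taken, 51.9% of all genes lay below 0, and nothing is read from this count. Of the 8 neighbours 1 was called, beside 3.24% of all genes.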
